A study of Mus musculus with 12 samples.

Results

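Stefins and cystatins are small proteins that block papain-like cysteine proteases, and 6 of their genes that are active in epidermis are described here over 4 groups of sorted wound keratinocytes. They are the stefin A genes BC100530, Stfa1, Stfa2 and Stfa3, the stefin B gene Cstb, and Cst6, which encodes the secreted cystatin E/M. They were taken by name from the 55315 gene rows analysed, and all 6 passed the filter on low counts that left 16677 genes to test. The 4 stefin A genes are near-identical in places, so their sum was followed as well.

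The study asked how RORγt, the transcription factor of lymphocytes that make IL-17, bears on the epithelium that closes a skin wound. Mice were wild type (controls) or RORγt-deficient through a GFP knock-in, and cells were taken on day 3 after wounding from a narrow ring of skin at the wound edge. Live Epcam+ integrin alpha6+ cells without CD45, CD31 or CD117 were sorted into integrin alpha5-positive (A5-positive) cells, which the submitters assigned to the migrating tongue, and A5-negative cells, which they assigned to the wound edge. Each of the 4 groups had 3 RNA-seq libraries, numbered 1 to 3, each from pooled mice, so that p-values measure the spread between pools. All mice were wounded, and their strain and age were not used here. A knock-in of this kind removes RORγt from every cell that uses it, so the groups do not single out 1 lymphocyte type.

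Stefins act inside the cell and cystatins of the Cst6 type are secreted. Both fold into a wedge whose first hairpin loop, second loop and amino-terminal end enter the active-site cleft of cathepsins such as B, H, L and S, and cystatin E/M also blocks legumain through a separate site. Stefin A is abundant in upper epidermis and is built into the cornified envelope. In the mouse the gene has multiplied into a cluster on chromosome 16, and several copies are also strongly expressed in neutrophils. Cystatin E/M restrains the proteases that process transglutaminase 3, and mice without it cornify abnormally.

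The coding bases of the first inhibitory loop are shown because they carry the protease contact that the 6 genes share and show how close the stefin A copies are. They come from the GENCODE M21 transcripts on GRCm38, are written 5′ to 3′ on the coding strand, and the capitals mark the 15 bases of the loop.
BC100530: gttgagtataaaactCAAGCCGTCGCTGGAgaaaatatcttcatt
Stfa1: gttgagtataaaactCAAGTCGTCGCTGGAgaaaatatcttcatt
Stfa3: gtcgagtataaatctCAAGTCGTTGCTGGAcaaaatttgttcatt
Stfa2: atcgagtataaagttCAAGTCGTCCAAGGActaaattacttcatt
Cstb: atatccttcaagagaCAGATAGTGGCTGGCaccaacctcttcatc
Cst6: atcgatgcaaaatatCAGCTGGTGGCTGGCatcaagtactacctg

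The capitals lie in coding exons at chr16:36364230-36364244 on the minus strand for BC100530, chr16:36280535-36280549 on the plus strand for Stfa1, chr16:36452169-36452183 on the minus strand for Stfa3 and chr16:36405148-36405162 on the minus strand for Stfa2. Those of Cstb lie at chr10:78426996-78427010 on the plus strand. Those of Cst6 cross an exon junction within chr19:5348511-5349097 on the minus strand. Of the 15 loop bases of BC100530, Stfa1 shared 14, Stfa3 shared 13 and Stfa2 shared 11, while Cstb and Cst6 each shared 9. Over the coding bases that both genes hold, BC100530 and Stfa1 were 97.94% identical (285 of 291 bases), Stfa1 and Stfa3 84.54%, Stfa1 and Stfa2 79.04%, and BC100530 and Cstb 58.42%.

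This likeness limits how well reads can be told apart. Of all 50-base windows of its transcript, 100% were found in no other annotated gene for Stfa3, Cstb and Cst6. The share was 84.12% for Stfa2, 74.62% for Stfa1 and 51.05% for BC100530, whose windows were shared with Stfa1, BC117090, Csta1 and the antisense gene Gm15845. Windows of 100 bases were unique at 98.07% in Stfa1 and 77.69% in BC100530. The sources used here do not say how long the reads were, or how the counting treated strand and reads that match several genes. The split between BC100530 and Stfa1 is therefore uncertain. Their sum is the safer quantity where reads were exchanged between them, but not where shared reads went uncounted. Gm15845 itself had 0 to 53 counts per library, which does not show how many reads shared with BC100530 went uncounted.

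As placed by RefSeq, the starts of the stefin A genes were about as alike as their coding parts. RefSeq promoter sequence (GRCm38.p6) was at hand for 9 genes of the cluster, where BC100530 is named Cstdc5, and for neither Cstb nor Cst6. The 30 bases ending next to a shared TTTAAAAC are shown for the 4 members, with that motif in capitals. It was chosen after the sequences had been read.
BC100530: gaggaggagtttacagataccTTTAAAACc
Stfa1: gaggaggagctttcggataccTTTAAAACc
Stfa2: gaggaggagcttacagaaaccTTTAAAACc
Stfa3: aggaggagcttacagataaccTTTAAAACc

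These windows lie at chr16:36367571-36367600 on the minus strand for BC100530, chr16:36277097-36277126 on the plus strand for Stfa1, chr16:36408384-36408413 on the minus strand for Stfa2 and chr16:36455415-36455444 on the minus strand for Stfa3. Counted from the RefSeq start, the motif began at -9 in BC100530, -30 in Stfa1, -29 in Stfa2 and -31 in Stfa3. GENCODE M21 places the starts elsewhere. By it the windows of BC100530, Stfa1 and Stfa2 lie inside the gene, and that of Stfa3 lies before it. On either strand, TTTAAAAC was present in 7 of the 9 stefin A promoters, against 562 of all 32851 RefSeq promoters of the same length (1.71%). The AP-1 motif TGANTCA was present in 1 of the 9, against 7.81% of all promoters. Over the 150 bases that end with the motif, BC100530 and Stfa1 were 94.67% identical, and the other pairs of members were 79.61% to 84.77% identical. A shared motif is a description of the sequence and shows no binding.

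Total counts ran from 29293687 to 74563616 per library. Itga5, which encodes integrin alpha5, had 42.2 to 61.3 CPM (a gene's counts scaled to the size of the library) in the 6 A5-negative libraries and 85.1 to 136.7 CPM in the 6 A5-positive libraries, without overlap. Summed markers of basal keratinocytes (6 genes, among them Krt5, Krt14 and Itga6) made up 25500 to 73800 CPM of every library, and the highest sum was that of wild-type A5-positive library 1. Summed fibroblast markers (10 genes) were at 49.9 to 494 CPM in A5-negative libraries but 3730 to 8110 CPM in wild-type and 9380 to 16100 CPM in RORγt-deficient A5-positive libraries. Macrophage markers were highest in wild-type A5-negative library 1 (1580 CPM, against 93 to 644 CPM in the other 11).

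BC100530 was the stefin A row with the most counts, and it was higher in A5-positive than in A5-negative cells of both genotypes. In wild-type libraries 1, 2 and 3, its level (in CPM scaled by TMM factors, as are all levels of single genes other than cell type markers, which are CPM of the total counts) was 108, 85.5 and 81.7 CPM in A5-negative cells and 479.7, 204 and 212 CPM in A5-positive cells. In the RORγt-deficient A5-negative libraries it was 38.4, 27.2 and 56.8 CPM, and in their A5-positive counterparts 225, 64.6 and 87.6 CPM. A5-positive library 1 was the highest of its group in each genotype. All A5-positive libraries lay above all A5-negative libraries of the same genotype, as they did for 15.9% of all tested genes in wild type and 14.3% in RORγt deficiency.

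Stfa3, the next in counts, followed the same order of groups. In wild type, A5-negative cells had 60.3, 50.8 and 40.7 CPM, and A5-positive cells had 223, 103 and 106 CPM. In RORγt deficiency, A5-negative cells had 28.5, 16.5 and 38.2 CPM, and A5-positive cells had 112, 33.3 and 65.4 CPM. The RORγt-deficient A5-positive and A5-negative libraries of Stfa3 overlapped, because A5-negative library 3 lay above A5-positive library 2. Stfa1 was lower, at 17.2, 14.8 and 11.5 CPM in wild-type A5-negative cells and 128, 43.5 and 35.3 CPM in wild-type A5-positive cells. In RORγt deficiency, A5-negative libraries of Stfa1 had 5.31, 5.10 and 7.11 CPM. Their A5-positive counterparts had 40.5, 8.92 and 14.9 CPM, again without overlap.

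Stfa2 was close to the limit of detection. It had 18, 2 and 8 counts in wild-type A5-negative libraries and 162, 13 and 12 counts in wild-type A5-positive libraries. In RORγt deficiency it had 3, 1 and 2 counts in A5-negative and 48, 6 and 4 counts in A5-positive libraries. It reached 10 counts in 5 of the 12 libraries, 4 of them A5-positive, so its passing of the filter rested mainly on the cells in which it was higher.

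**Figure D1:**
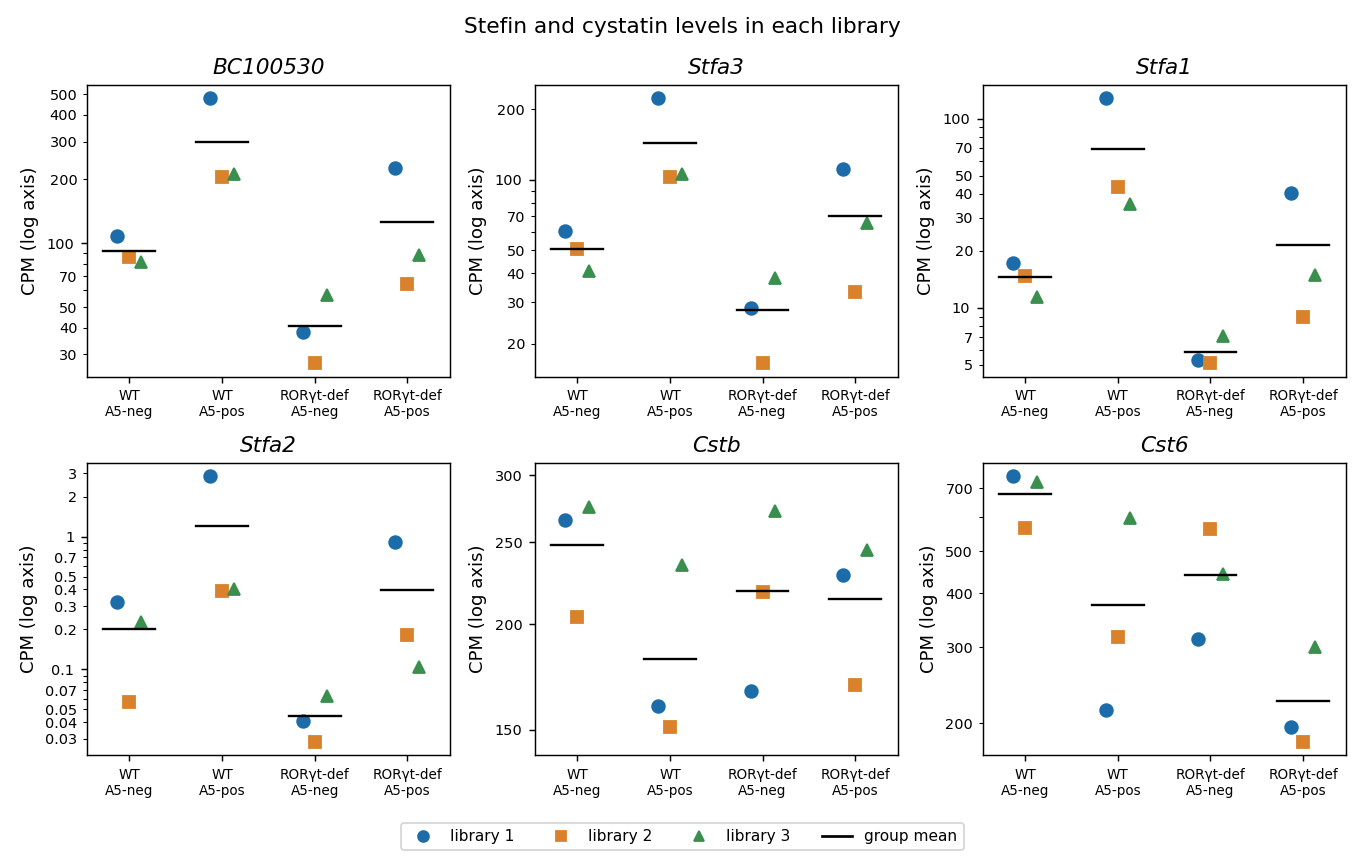
Levels of the 6 genes in CPM scaled by TMM (vertical log axis, a different range in each panel) in the 4 groups, with a symbol for each of the 3 libraries and a bar for the group mean. The stefin A genes are highest in wild-type A5-positive library 1, Cstb varies little between groups, and Cst6 has its lowest group mean in RORγt-deficient A5-positive cells.

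The stefin A sum over the 4 members was 186, 151 and 134 CPM in wild-type A5-negative libraries 1 to 3 and 834, 351 and 354 CPM in wild-type A5-positive libraries. It was 72.3, 48.8 and 102 CPM in RORγt-deficient A5-negative libraries and 378, 107 and 168 CPM in RORγt-deficient A5-positive libraries. Group means (SD, n = 3) were 157 ± 26.5, 513 ± 278, 74.4 ± 26.7 and 218 ± 142 CPM in that order. Wild-type A5-positive cells thus held the most stefin A RNA and RORγt-deficient A5-negative cells the least. The A5-positive mean was 3.27 times the A5-negative mean in wild type and 2.92 times in RORγt deficiency, and in both genotypes all 3 A5-positive libraries lay above all 3 A5-negative libraries. The RORγt-deficient mean was 0.424 times the wild-type mean in A5-positive cells, where 1 RORγt-deficient library (library 1) lay above 2 of the wild-type libraries, and 0.474 times in A5-negative cells, where the groups did not overlap. The sum was not tested, since it was formed over chosen genes. In sorted bulk RNA, a smaller number of cells with the transcript and less transcript per cell cannot be told apart.

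**Figure D2:**
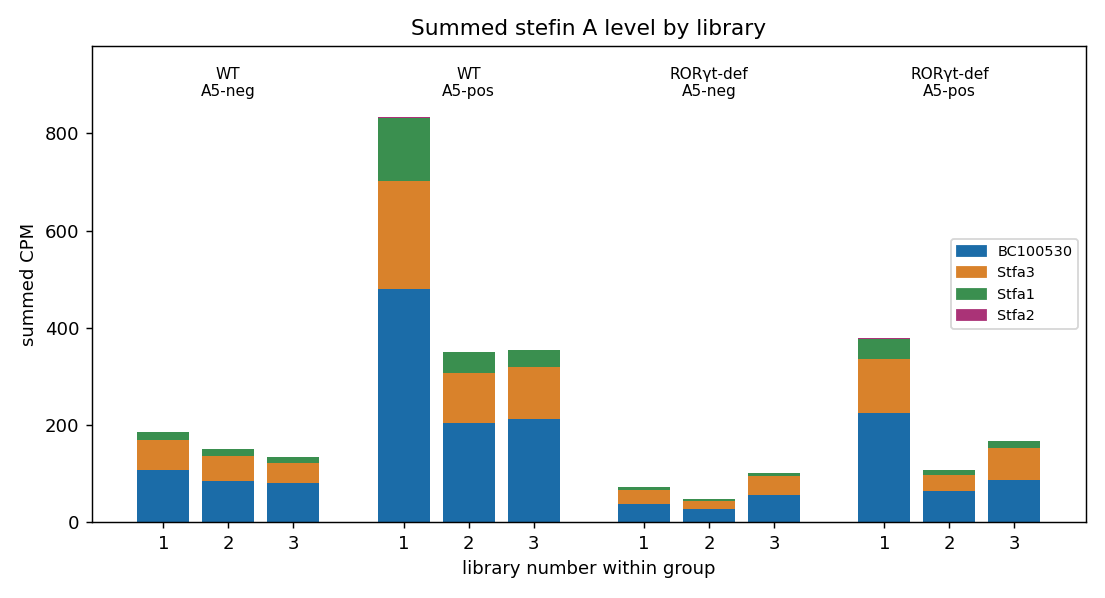
Summed stefin A level (CPM scaled by TMM, linear axis from 0) in each of the 12 libraries, stacked by gene and grouped by genotype and A5 status. The sum runs from 48.8 to 834 CPM, BC100530 forms the lowest and thickest layer in every library, and Stfa2 is too thin to be seen in most.

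The make-up of the sum varied less than its size. Of the counts of all 11 stefin A rows in the table, BC100530 held 51% to 60.2% per library (median 56.7%), Stfa3 26.2% to 39% (median 31.5%) and Stfa1 6.85% to 15.1% (median 9.42%). Stfa1 had its largest share in wild-type A5-positive library 1, the library with the highest sum. Stfa2 held 0.0369% to 0.333%, and Csta1, BC117090 and Gm5416 held at most 1.15% each. Stfa2l1 and Gm4758 had 0 counts in every library.

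Neutrophils are the other known source of stefin A RNA, and 14 of their markers were looked at in CPM of the total counts. Ly6g had 0 counts in 11 of 12 libraries and 0.0301 CPM in wild-type A5-positive library 2, Elane had 0 counts in all 12, and Retnlg, Ngp, Camp, Ltf and Mpo each stayed at or below 0.271 CPM. Other markers, several of them shared with macrophages, were detected and varied: Cxcr2 ranged from 2.11 to 11.5 CPM, Csf3r from 0.444 to 7.95 CPM, Trem1 from 0.683 to 7.33 CPM, Clec4d from 0.383 to 6.67 CPM, Mmp8 from 0.0871 to 4.58 CPM and Cd177 from 0 to 1.2 CPM. Il1r2, which keratinocytes also express, was at 43 to 151 CPM and made up most of the sum.

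The summed neutrophil markers ranged from 60.8 to 179 CPM in wild-type A5-negative and 74.7 to 95.1 CPM in wild-type A5-positive libraries. In RORγt deficiency they ranged from 84.9 to 138 CPM in A5-negative cells and 76.5 to 110 CPM in A5-positive cells. Of the 14, 7 had enough counts to test. Their median log2 change between A5-positive and A5-negative cells was -1.89 in wild type and -1.45 in RORγt deficiency, and between genotypes it was 0.83 in A5-positive and -0.03 in A5-negative cells. None of the 7 passed edgeR's test in these 4 comparisons without the library number as a block. With the block Csf3r was lower in A5-positive than in A5-negative wild-type cells (-2.31 on the log2 scale, edgeR adjusted p = 0.0349), and Cxcr2 was lower in RORγt-deficient than in wild-type A5-positive cells (-1.46, edgeR adjusted p = 0.0362). The block called 14.4% of all genes in the first of these 2 comparisons and 4.02% in the second. The part of neutrophils in the stefin A results was not tested.

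For A5-positive against A5-negative wild-type cells, 1 of the 6 genes passed the adjusted threshold of 0.05 in edgeR's quasi-likelihood test, where 3.45% of all 16677 genes did. That gene was Stfa1, which rose by 2.25 ± 0.56 on the log2 scale (± SE, adjusted p = 0.0488). The call was marginal: it ended without any of the 3 A5-negative libraries, and without A5-positive library 1 or library 2 (edgeR adjusted p from 0.0588 to 0.229), and without A5-positive library 1 the log2 change was 1.43. BC100530 had a log2 change of 1.70 ± 0.47 (edgeR adjusted p = 0.0687) and Stfa3 one of 1.51 ± 0.44 (edgeR adjusted p = 0.0832). Stfa2 had a log2 change of 2.55 ± 0.97 (edgeR adjusted p = 0.168), and its pooled counts of 187 against 28 gave a ratio of 7.02 (95% Clopper-Pearson interval 4.7 to 10.8, for counting error only). The median log2 change of the 4 stefin A members was 1.98, or that of BC100530 (1.70) without Stfa2, beside 0.0253 over all genes tested.

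Libraries of the same number deviated together across the groups, so the library number was also fitted as a block. With the block, 4 of the 6 genes passed in the wild-type comparison, where 14.4% of all genes did. Stfa1 rose by 2.04 ± 0.40 (edgeR adjusted p = 0.00946), BC100530 by 1.59 ± 0.32 (edgeR adjusted p = 0.0109) and Stfa3 by 1.41 ± 0.30 on the log2 scale (edgeR adjusted p = 0.0147), and Cst6 fell. Stfa2 did not pass (edgeR adjusted p = 0.0508). It was in the test mainly through the cells in which it was higher, so its p is no support here either. These blocked calls still rested on single libraries: without A5-negative library 3 none of the 4 genes passed (edgeR adjusted p from 0.0539 to 0.0813), and Stfa1 was the only stefin A gene that passed without A5-negative library 1 (edgeR adjusted p = 0.0494). BC100530 and Stfa1 passed without A5-positive library 1 or 2, and Stfa3 did not (edgeR adjusted p = 0.0617 and 0.0651). Cst6 alone lost its call also without A5-negative library 2 (edgeR adjusted p = 0.0579).

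Pairs of the same number show the size of the difference in the stefin A sum. In wild type the A5-positive library held 4.48, 2.32 and 2.64 times the A5-negative level for numbers 1, 2 and 3. In RORγt deficiency the ratios were 5.23, 2.19 and 1.64. All 6 ratios were above 1, and number 1 had the largest ratio in both genotypes. With all libraries of number 1 left out, the log2 ratio of the group means was 1.31 in wild type and 0.86 in RORγt deficiency, against 1.71 and 1.55 with all libraries. A5-positive cells also had higher fibroblast marker sums. Basal keratinocyte marker sums were 42400 to 73800 CPM against 26700 to 39700 CPM in wild type. In RORγt deficiency they were 34800 to 51300 CPM against 25500 to 37600 CPM, with overlap. Krt5 and Krt14 made up most of these sums. Of the 6 basal markers, 5 had a log2 change above 0 in wild type and 1 below 0, with a median of 0.401. Trp63 was at 659, 737 and 728 CPM in wild-type A5-negative and 667, 726 and 609 CPM in wild-type A5-positive libraries. The part of these markers in the stefin A difference was not tested.

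In RORγt-deficient cells, 0 of the 6 genes passed edgeR's test between A5-positive and A5-negative cells, where 5.52% of all genes did, while 5, Stfa2 included, had an unadjusted p under 0.05, as 21.8% of all genes did. DESeq2 called 4 of them, where it called 10.6% of all genes, and limma-voom called 1, where it called 9.39%. BC100530 had a log2 change of 1.62 ± 0.47 (edgeR adjusted p = 0.067), Stfa1 one of 1.88 ± 0.56 (edgeR adjusted p = 0.0778) and Stfa3 one of 1.34 ± 0.44 (edgeR adjusted p = 0.105). Stfa2 had 58 against 6 pooled counts, a ratio of 10.9 (95% Clopper-Pearson interval 4.74 to 31.1). The median over the stefin A members was 1.75, or that of BC100530 (1.62) without Stfa2, beside -0.000335 over all genes.

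With the library number as a block, 17.6% of all genes passed in RORγt-deficient cells, and 4 members did when Stfa2 is set aside. BC100530 rose by 1.45 ± 0.33 (edgeR adjusted p = 0.0134), Stfa3 by 1.24 ± 0.31 (edgeR adjusted p = 0.0198) and Stfa1 by 1.61 ± 0.41 on the log2 scale (edgeR adjusted p = 0.0225). Cst6 fell. Stfa2 had a log2 change of 2.99 ± 0.86 (edgeR adjusted p = 0.036), which would make 5 of 6, but it had 1 to 3 counts in the A5-negative libraries and was in the test mainly through the cells in which it was higher, so its p is no support. Without A5-negative library 1 or without A5-positive library 1, none of these genes passed, and BC100530 then had a log2 change of 1.06 either way (edgeR adjusted p = 0.0776 and 0.0589). Without A5-negative library 2 only BC100530 passed (edgeR adjusted p = 0.0496). Without A5-positive library 3, BC100530 (edgeR adjusted p = 0.0317) was the only 1 of the 4 that passed, and without A5-positive library 2 BC100530, Stfa1 and Stfa3 passed.

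**Figure D3:**
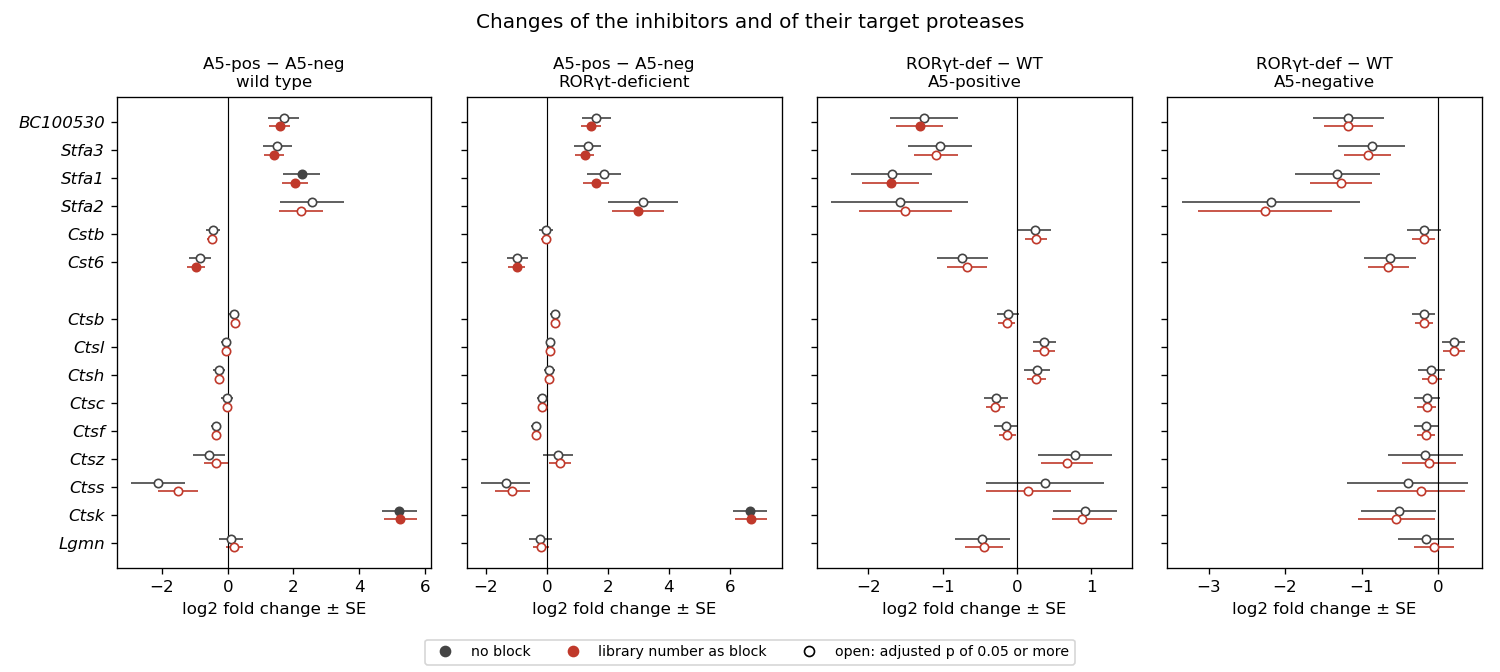
Log2 fold change ± SE of the 6 inhibitors and of 9 target proteases in the 4 comparisons (a different horizontal range in each panel), without a block (dark) and with library number as a block (red), where filled symbols have an adjusted p under 0.05. The stefin A genes lie right of 0 in both A5 comparisons and left of 0 in both genotype comparisons. Of the 9 proteases drawn, Ctsk alone has filled symbols, and Ctso and Ctsw are not drawn.

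Between genotypes, the stefin A genes were lower in RORγt-deficient cells on average, but without a block no member passed the test. The 2 genotype comparisons use the same 12 libraries as the 2 A5 comparisons, so their values are set side by side and are not independent. In A5-positive cells 0 of 6 genes passed edgeR's test, where 0.006% of all genes did (1 gene), and 3 had an unadjusted p under 0.05, as 15% of all genes did. DESeq2 called 1 (Stfa1), where it called 3.67% of all genes, and limma-voom called 0, where it called 0.03%. The log2 changes were -1.25 ± 0.46 for BC100530 (edgeR adjusted p = 0.254), -1.69 ± 0.55 for Stfa1 (edgeR adjusted p = 0.217), -1.04 ± 0.43 for Stfa3 (edgeR adjusted p = 0.3) and -1.58 for Stfa2 (edgeR adjusted p = 0.429). For all 6 genes the wild-type and RORγt-deficient A5-positive libraries overlapped, while 18.1% of all genes did not.

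With the library number as a block, 2 genes passed in A5-positive cells, where 4.02% of all genes did. Stfa1 fell by 1.70 ± 0.39 (edgeR adjusted p = 0.0418) and BC100530 by 1.31 ± 0.32 on the log2 scale (edgeR adjusted p = 0.046), while Stfa3 was at -1.09 ± 0.30 (edgeR adjusted p = 0.0653). Both calls ended when any single A5-positive library other than wild-type library 3 was left out (edgeR adjusted p from 0.0574 to 0.201). In pairs of the same number, the RORγt-deficient sum was 0.454, 0.305 and 0.474 times the wild-type sum. All 3 ratios were below 1, although the levels themselves differed between the pairs.

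In A5-negative cells, all 3 RORγt-deficient libraries lay below all 3 wild-type libraries for BC100530, Stfa1, Stfa3 and Cst6, as they did for 8.26% of all genes tested. None of the 6 genes passed edgeR's test, where 0.006% of all genes did, and 2 had an unadjusted p under 0.05, as 5.09% of all genes did. DESeq2 and limma-voom called 0 (0.126% and 0.042% of all genes), and the block called 0 as well (0.006% of all genes). The log2 changes were -1.17 ± 0.46 for BC100530, -1.31 ± 0.55 for Stfa1 and -0.87 for Stfa3 (edgeR adjusted p = 0.779 for each, and 0.173, 0.206 and 0.218 with the block). The sum was 0.389, 0.323 and 0.762 times the wild-type sum in pairs 1, 2 and 3. Number 3 thus had the smallest deficit.

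The A5 difference did not differ detectably between genotypes. No member passed the interaction test, as no gene of all those tested did in edgeR (0%), and none had an unadjusted p under 0.05 with edgeR (2.75% of all genes did), DESeq2, limma-voom or the block. After adjustment DESeq2 called 0.0481% of all genes and limma-voom 0%, with no member among them. The interaction was -0.08 ± 0.64 on the log2 scale for BC100530, -0.37 ± 0.76 for Stfa1, -0.17 ± 0.61 for Stfa3 and 0.61 ± 1.38 for Stfa2 (edgeR adjusted p = 1 for each). The standard errors are wide beside the A5 changes, so a difference between genotypes could have gone undetected.

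**Figure D4:**
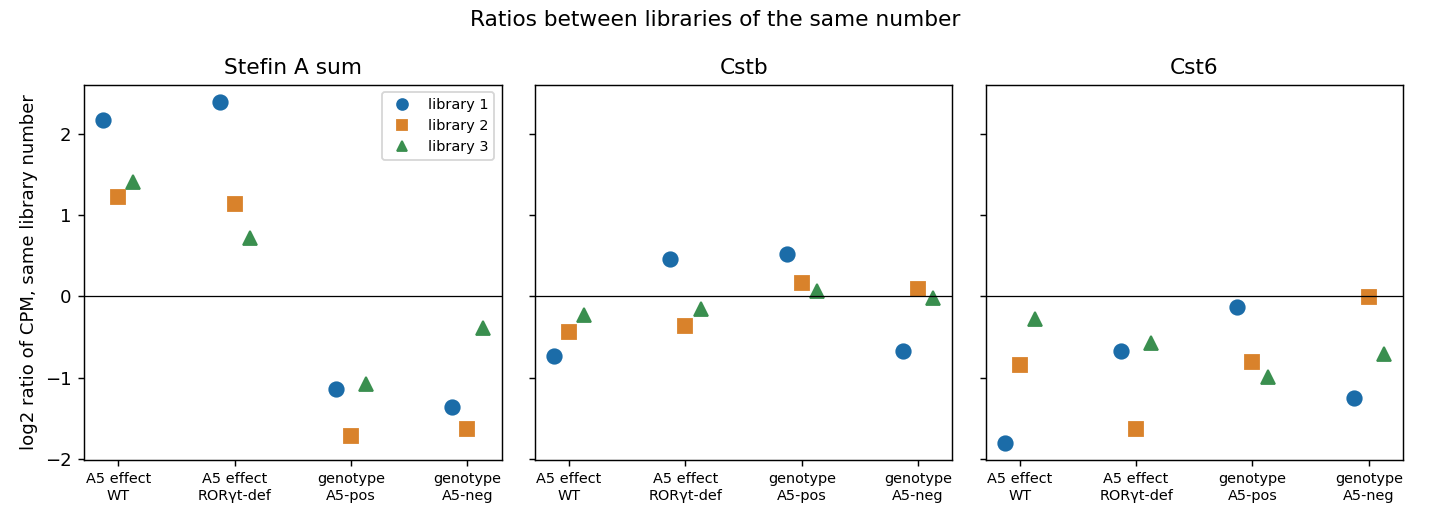
Log2 ratio of levels between libraries of the same number (vertical axis shared by the 3 panels) for the stefin A sum, Cstb and Cst6 in the 4 comparisons, with a symbol for each library number. The sum lies above 0 in all 6 A5 ratios and below 0 in all 6 genotype ratios, Cstb lies on both sides of 0, and Cst6 is below 0 in each A5 ratio.

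Cstb, the broadly expressed stefin B, was the steadiest of the 6. Wild-type A5-negative libraries had 266, 204 and 275 CPM, and wild-type A5-positive libraries 159.9, 151 and 235 CPM. In RORγt deficiency the A5-negative libraries had 167, 218 and 272 CPM, and the A5-positive libraries 229, 169 and 245 CPM. The groups overlapped in every comparison. The log2 change between A5-positive and A5-negative cells was -0.45 ± 0.23 in wild type (edgeR adjusted p = 0.279, and 0.0591 with the block) and -0.030 ± 0.22 in RORγt deficiency (edgeR adjusted p = 0.951). The genotype difference was 0.24 in A5-positive cells (edgeR adjusted p = 0.638) and -0.18 in A5-negative cells (edgeR adjusted p = 0.846).

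Cst6, which encodes cystatin E/M, ran opposite to the stefin A genes between A5-positive and A5-negative cells. Wild-type A5-negative libraries had 745, 566 and 724 CPM, and wild-type A5-positive libraries 214, 317 and 597 CPM. RORγt-deficient A5-negative cells gave 313, 563 and 444 CPM, and the A5-positive ones 196, 181 and 299 CPM. The A5-positive libraries lay below the A5-negative ones without overlap in RORγt deficiency, as they did for 11.3% of all genes, and overlapped in wild type, where A5-positive library 3 was above A5-negative library 2. The log2 change was -0.85 ± 0.34 in wild type (edgeR adjusted p = 0.185) and -0.96 ± 0.34 in RORγt deficiency (edgeR adjusted p = 0.13). With the block, Cst6 fell by 0.96 ± 0.27 in wild type (edgeR adjusted p = 0.0389) and by 0.99 ± 0.27 in RORγt deficiency (edgeR adjusted p = 0.0301).

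These blocked calls of Cst6 ended in wild type when any library but A5-positive library 3 was left out (edgeR adjusted p from 0.0579 to 0.189) and in RORγt deficiency when any library but A5-negative library 3 was left out (edgeR adjusted p from 0.063 to 0.102). Without wild-type A5-positive library 1 the wild-type change was -0.71. The genotype difference of Cst6 was -0.74 in A5-positive cells (edgeR adjusted p = 0.335) and -0.62 in A5-negative cells (edgeR adjusted p = 0.779). Summed markers of spinous keratinocytes (6 genes), the layer above the basal one, were at 6900 to 12000 CPM in wild-type A5-negative and 4620 to 10900 CPM in wild-type A5-positive libraries. They were at 7130 to 10500 CPM in RORγt-deficient A5-negative and 3940 to 5980 CPM in RORγt-deficient A5-positive libraries. Their part in the Cst6 difference was not tested.

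Levels of different genes can be set against each other only per length of transcript, here as CPM per kilobase of exon (mean ± SD, n = 3). In wild-type A5-negative cells Cstb led at 412 ± 63.8, followed by Cst6 at 166 ± 23.9, Stfa3 at 123 ± 23.8, BC100530 at 116 ± 18.1, Stfa1 at 20.4 ± 4.08 and Stfa2 at 0.430 ± 0.287. The ranges of Cst6 and Stfa3 overlapped there, but within each library Cst6 was higher (182, 138 and 177 against 146, 123 and 98.8). Stfa3 lay above BC100530 in libraries 1 and 2 and below it in library 3. In wild-type A5-positive cells BC100530 (378 ± 199), Stfa3 (349.8 ± 166) and Cstb (302 ± 76.3) came first and lay within each other's spread, ahead of Stfa1 (97.2 ± 72.6) and Cst6 (91.9 ± 48.4), which also did. Within each of these libraries BC100530 was above Stfa3. Per kilobase of the whole exon length, BC100530 and Stfa3 lay below Cstb in A5-negative cells and at its level in A5-positive cells of wild-type mice. Reads of BC100530 and Stfa1 that match other genes may have gone uncounted. The levels per kilobase of these 2 genes, and their ranks, are therefore uncertain in all groups. The rank of Cst6 rests on its annotated exon length of 4090 bases, against 603 bases for Cstb. The transcript lengths present in these cells were not measured.

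In RORγt deficiency Cstb led in both sorts of cells, at 363 ± 87.6 CPM per kilobase in A5-negative and 356 ± 65.8 in A5-positive cells. In A5-negative cells Cst6 (108 ± 30.6), Stfa3 (67.3 ± 26.4) and BC100530 (51.6 ± 18.9) followed, each within the spread of the next. Within each A5-negative library these genes stood in the same order. In A5-positive cells Stfa3 (170.2 ± 95.6) and BC100530 (159 ± 110) came next and overlapped, ahead of Cst6 (55.2 ± 15.7) and Stfa1 (30.2 ± 23.6), which lay within each other's spread.

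Of the 16 other names listed for the stefin A cluster, 3 rows had enough counts to test. Gm5416, which RefSeq names Csta3, had 10, 6 and 2 counts in wild-type A5-negative and 285, 48 and 48 counts in wild-type A5-positive libraries. In RORγt deficiency it had 4, 3 and 1 counts in A5-negative cells, and 47, 3 and 62 counts in A5-positive cells. It was in the test mainly through the A5-positive cells in which it was higher, so its values are given as a description with no test. The pooled ratio of A5-positive to A5-negative cells was 22.2 in wild type (95% Clopper-Pearson interval 13.9 to 37.9) and 15.9 in RORγt deficiency (interval 7.77 to 37.6). All 50-base windows of Gm5416 were unique to it (100%). Csta1 had a log2 change of 2.44 ± 0.61 in wild type (edgeR adjusted p = 0.0516, and 0.0212 with the block) and 1.34 in RORγt deficiency (edgeR adjusted p = 0.227). BC117090 had 1.76 ± 0.45 (edgeR adjusted p = 0.0572, and 0.0343 with the block) and 0.44 (edgeR adjusted p = 0.598). The block called 14.4% of all genes in the wild-type comparison. Neither Csta1 nor BC117090 passed between genotypes.

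Of 15 other cystatin family genes, 2 were tested. Cst3, the broadly secreted cystatin C, passed in no comparison (wild-type A5 log2 change -0.23, edgeR adjusted p = 0.573). Fetub, which encodes fetuin-B, was low, at 1.79, 2.51 and 2.48 CPM in the wild-type A5-negative libraries, against 4.67, 4.74 and 4.64 CPM in the A5-positive ones. Fetub rose by 1.05 ± 0.25 there (edgeR adjusted p = 0.0383), where 3.45% of all genes passed. It had a log2 change of 0.61 in RORγt deficiency (edgeR adjusted p = 0.176).

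The target proteases, 10 papain-like cathepsins and legumain, were all tested, and 1 of the 11 passed in the A5 comparisons. Of all genes, 3.45% passed in wild type and 5.52% in RORγt deficiency. The protease that passed was Ctsk, the collagen-degrading cathepsin K. It had 4.66, 1.72 and 1.49 CPM in the wild-type A5-negative libraries, against 51.3, 115 and 135 CPM in the A5-positive ones. It rose by 5.22 ± 0.53 on the log2 scale in wild type (edgeR adjusted p = 0.000304) and by 6.65 ± 0.57 in RORγt deficiency (edgeR adjusted p = 4.4e-05). The fibroblast marker sums given above differed between the same libraries in the same direction, with 9 of 10 markers called higher in each genotype, and their part in the Ctsk difference was not tested.

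The cathepsins known as epidermal partners of these inhibitors did not pass. Ctsb, which encodes cathepsin B, averaged 1561 ± 238 CPM in wild-type A5-negative and 1796 ± 32.7 CPM in wild-type A5-positive libraries (log2 change 0.20 ± 0.15, edgeR adjusted p = 0.463). Ctsl, a target of both stefins and cystatin E/M, averaged 195 ± 24.1 and 189.5 ± 24.1 CPM (log2 change -0.04 ± 0.15, edgeR adjusted p = 0.887). The median log2 change of the 11 proteases was -0.27 in wild type and -0.00589 in RORγt deficiency between A5-positive and A5-negative cells, and 0.37 and -0.16 between genotypes in A5-positive and A5-negative cells. Over all genes these medians were 0.0253, -0.000335, 0.0021 and 0.000141. With the block, Ctso was higher in RORγt-deficient than in wild-type A5-positive cells (means 22.9 against 13.1 CPM, 0.78 on the log2 scale, edgeR adjusted p = 0.038). The block called 4.02% of all genes in that comparison.

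Among the 3 epidermal transglutaminases, which crosslink the cornified envelope, none passed without the block. With it, Tgm3, the enzyme whose processing cystatin E/M restrains, rose in wild-type A5-positive against A5-negative cells by 1.28 on the log2 scale (edgeR adjusted p = 0.0411, and 0.148 without the block). It fell by 2.09 in RORγt-deficient against wild-type A5-positive cells (edgeR adjusted p = 0.0327, and 0.178 without the block). The block called 14.4% of all genes in the first of these comparisons and 4.02% in the second. Tgm3 levels in A5-positive libraries were 14.3, 5.43 and 6.83 CPM in wild type and 2.15, 1.52 and 2.69 CPM in RORγt deficiency. These did not overlap, as was so for 18.1% of all genes tested. Summed markers of granular and cornified keratinocytes (12 genes) overlapped between all groups, at 147 to 354 CPM in wild type and 152 to 333 CPM in RORγt deficiency.

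The genes whose pattern over the 12 libraries was most like that of the stefin A sum, among 9065 genes outside the family with enough counts, were Aes (Pearson r = 0.986), Ap1s1 (r = 0.985) and Stoml2 (r = 0.982). For Cstb they were Tmem45a (r = 0.954), Akr1c18 (r = 0.933) and Soat1 (r = 0.91), and for Cst6 they were Slc46a2 (r = 0.959), Pdzk1ip1 (r = 0.956) and Sprr4 (r = 0.944). These are descriptions over libraries that share group, library number and depth, and the genes were picked as the highest of many. Aes varied far less than the stefin A sum, from 139.1 to 338 CPM, and it too was highest in wild-type A5-positive library 1. Sprr4, a small proline-rich envelope protein gene, ranged from 3.22 to 47.2 CPM.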

How the data were processed

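Per the submitters' processing notes, the tools were STAR, featureCounts, Trimmomatic 0.36 and bcl2fastq, with GRCm38 as the build. Libraries were made with SMART-Seq v4 and ThruPLEX kits, per the labels' protocols. The authors deposited raw read counts per gene symbol for 12 libraries, with no normalization. Of 55341 rows, 26 had become dates and were left out (0.11% to 0.1283% of counts).

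Counts were analysed with edgeR 4.0.16 (R 4.3.3), using TMM, filterByExpr by group, a quasi-likelihood test over all 12 libraries and Benjamini-Hochberg adjustment over 16677 genes in each of 5 comparisons. The SE was taken as the log2 change over the square root of its F statistic. Positions come from GENCODE M21 and promoters from RefSeq. Members and gene lists were chosen with earlier results of these data known. The genes named were the 6 members, the fixed family and protease lists and the 3 genes most alike in pattern.

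Library numbers come from the sample titles. Libraries of the same number had correlated deviations from their group means in all 18 pairs (r from 0.153 to 0.722 over 9071 genes, median 0.452). In the 36 pairs of different number r ran from -0.63 to 0.315 (median -0.238), so the 2 ranges overlapped. Deviations from a group mean sum to 0, so positive r in same-number pairs brings negative r in the others. The 36 pairs are therefore not a separate check. On the basis of the 18 same-number pairs, libraries of the same number were treated as paired. No 2 libraries of a group were alike to within counting noise. Intervals cover counting error only. The alternatives were RLE size factors, DESeq2 1.42.0, limma-voom (limma 3.58.1), other filters, the block and libraries left out. In simulated data for the wild-type A5 comparison (16509 genes), 49% of genes changed by log2 1 and 93% of those changed by log2 2 were recovered. There were 10 false calls. The simulated libraries had no deviations shared by library number and were fitted without the block, so the blocked fit was not covered. The level of the targeted gene is not reported here.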

Additional observations from a re-analysis of the deposited data

How the results depend on the processing

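The number of the 6 genes past the threshold depended on the processing in 3 of the 5 comparisons. The summed stefin A ratio and the direction of every called gene did not reverse under any alternative. For A5-positive against A5-negative wild-type cells 1 gene passed (3.45% of all genes). The count was 0 with RLE size factors (3.26%) or with only the 2 groups compared (2.23%), 3 with DESeq2 (8.91%), limma-voom (5.93%) or no filter on low counts (2.9%), and 4 with the replicate block (14.4%). Leaving out a library gave 0 to 2, and 0 to 5 with the replicate block. In RORγt-deficient cells 0 passed (5.52% of all genes), against 4 with DESeq2 (10.6%) or without a filter (3.74%), 1 with limma-voom (9.39%) and 5 with the replicate block (17.6%), Stfa2 included. Leaving out a library gave 0 to 3, or 0 to 5 with the block, where the 5 included Stfa2. Between genotypes in A5-positive cells 0 passed (0.006% of all genes), against 1 with DESeq2 (3.67%) and 2 with the replicate block (4.02%), and leaving out a library under the block gave 0 to 2. So the share of all genes called rose as well under DESeq2, limma-voom and the block. That share is not given for the fits with a library left out, so their counts are a description only.

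Leaving out all libraries of 1 number was chosen after seeing the data. With the block it left 2 (number 1), 0 (number 2) and 5 (number 3, Stfa2 included) genes in the wild-type A5 comparison. In the RORγt-deficient one it left 1 (number 1) and 3 (number 3, Stfa2 included). No member passed there without number 2 (lowest edgeR adjusted p = 0.0526). Between genotypes in A5-positive cells it left 2 (number 1). No member passed there without number 2 (lowest edgeR adjusted p = 0.302) or without number 3 (lowest edgeR adjusted p = 0.087). The share of all genes called in these fits is not given, so the counts are a description only. Without the block the wild-type count was 0 for each number left out. Between genotypes in A5-negative cells and for the interaction, no setting called a member. For single genes, 62 values passed the threshold only under an alternative, 12 only in the fit reported, and 744 stayed on the same side. The cause of these changes was not tested. Depth limits Stfa2, whose counts were as low as 1 per library.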
